A study of Mus musculus with 8 samples.

Results

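Unstimulated macrophages labelled as Bcl6 knockouts were compared with unstimulated wild-type macrophages, to ask which transcripts differ between the genotypes before any stimulus. The cells were primary macrophages grown from the bone marrow of male mice 10 weeks old. Wild-type mice had the c57Bl6/J background, and the knockouts are labelled Bcl6-/- in the same background. Each genotype was read on 2 Illumina bead arrays, which the labels call technical replicates, so n = 2 arrays a group throughout. Cells of each genotype stimulated with LPS, the bacterial lipid sensed through Tlr4, were read on another 2 arrays each. Their values are set beside the unstimulated effect. These arrays were also normalized together with the unstimulated ones and enter the same estimate of the spread, so standard errors and p-values rest on all 8 arrays. The labels do not say whether the arrays of a group came from more than 1 mouse or culture, which part of Bcl6 was deleted, or how the marrow was cultured. All p-values therefore measure the spread between technical replicate arrays and not that between mice.

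Of 45281 probes on the array, 13485 were detected at a detection p under 0.01 on at least 2 of the 4 unstimulated arrays, and these are the probes described. Those with 1 gene symbol read 7927 genes, each represented by its brightest probe. Values are log2 signals after background correction and quantile normalization. Changes are the log2 signal of the labelled knockout minus that of wild type, with limma's standard error after ±. Calls required both a Benjamini-Hochberg adjusted p under 0.05 from limma and a 2-fold change or more. If neither array of a group detected a probe, only a lower bound of the fold is printed (at least N-fold), because the dim side has no measured level.

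Bcl6 is a zinc-finger protein that binds DNA and recruits corepressors, so that genes near its sites are transcribed less. It is best known for building germinal centres from B cells and follicular helper T cells, and mice without it develop inflammation with myeloid infiltrates. In macrophages it is known to bind many of the regions that NF-kappaB occupies, among them those of chemokine genes, and its DNA motif resembles the sites of the Stat factors that cytokine receptors switch on.

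The sequences shown first are those that bear on Bcl6 itself: stretches of promoters that hold the core of its motif, TTCCTNGAA on either strand. Promoters were taken from RefSeq (GRCm38.p6), from 250 bases before to 50 bases after each gene's start, and 6537 of the 7927 genes had one. A gene was counted as holding the core if at least 1 of its promoters did. Among genes with a promoter, the core was held by 1.56% of those tested and by 1.86% of all 27025. It was held by 10 of 289 such genes called higher in the labelled knockout (3.46%) and by 2 of 272 called lower (0.735%). These shares are descriptions of matching letters, not of binding. The 10 windows from genes called higher are given 5′ to 3′ on the strand of the gene, with the core in capitals.

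4930486L24Rik, chr13:60864506-60864534, minus strand: tgtggctacaTTCCTGGAAtgtcaaggtc
Bcl6, chr16:23981433-23981461, minus strand: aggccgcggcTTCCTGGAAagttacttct
Bst2, chr8:71537590-71537618, minus strand: tctaggggcaTTCCAGGAAaatgaaactg
Cish, chr9:107296649-107296677, plus strand: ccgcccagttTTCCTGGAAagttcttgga
Dnaaf3, chr7:4532666-4532694, minus strand: gatcctccctTTCCTAGAAatttggagga
Gbp7, chr3:142530220-142530248, plus strand: tccgttttctTTCCAGGAAaagcagaagc
Itgb3bp, chr4:99829223-99829251, minus strand: cctgcaccatTTCCTTGAAcacgttcagg
Mgst1, chr6:138141607-138141635, plus strand: caggagaagcTTCCAGGAAatgagaaaac
Radx, chrX:139480250-139480278, plus strand: ctcatgcatcTTCCTAGAAacattgtctc
Serpina3f, chr12:104214413-104214441, plus strand: tcagttctatTTCCTAGAAatcacccatt

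The 2 windows from genes called lower are given in the same way.

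Marchf1, chr8:65617832-65617860, plus strand: tcttgttaggTTCTAGGAAtaagtaaaga
Zfp429, chr13:67399782-67399810, minus strand: actgggagccTTCCAGGAAatccccttct

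Where the capitals do not spell the core directly, the match is on the opposite strand. These genes are shown because they hold the core and were called, so that their changes follow from that choice. Itgb3bp read 6.25 and 6.06 in wild type and 8.83 and 8.56 in the labelled knockout, a change of 2.54 ± 0.20. Radx, a single-stranded DNA-binding protein of replication forks, changed by 1.84 ± 0.23, and the interferon-inducible GTPase Gbp7 was at least 2.89-fold higher. The ubiquitin ligase Marchf1, which turns over MHC class II and Cd86, changed by -1.45 ± 0.20, and Zfp429 was at least 4.75-fold lower.

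The broader Stat core, TTCNNNGAA, of which the Bcl6 core is a special case, was counted by gene in the same way. Among genes with a promoter, it was found in 10% of those called higher, 8.46% of those called lower and 8.58% of those tested. An AP-1 motif, TGANTCA, was found in 11.1%, 8.09% and 6.07% of the same sets, and an NF-kappaB motif (GGGNN followed directly by TTTCC) in 4.5%, 3.31% and 2.13%. All 4 motifs were searched on both strands. Another promoter of Bcl6, chr16:23988803-23989102, held 0 Bcl6 cores and 1 Stat core and is not shown. The promoter of Bcl6 that holds the core and that of Cish, a feedback inhibitor of cytokine signalling, held more than 1 Stat core. They are shown in full, with every Stat core, the Bcl6 core included, in capitals.

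Bcl6, chr16:23981234-23981533, minus strand: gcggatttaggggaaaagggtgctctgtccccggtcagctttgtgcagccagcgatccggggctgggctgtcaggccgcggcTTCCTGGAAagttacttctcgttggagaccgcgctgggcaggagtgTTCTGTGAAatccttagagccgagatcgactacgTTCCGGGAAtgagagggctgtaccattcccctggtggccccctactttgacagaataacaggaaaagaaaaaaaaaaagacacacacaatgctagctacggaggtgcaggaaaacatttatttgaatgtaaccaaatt
Cish, chr9:107296409-107296708, plus strand: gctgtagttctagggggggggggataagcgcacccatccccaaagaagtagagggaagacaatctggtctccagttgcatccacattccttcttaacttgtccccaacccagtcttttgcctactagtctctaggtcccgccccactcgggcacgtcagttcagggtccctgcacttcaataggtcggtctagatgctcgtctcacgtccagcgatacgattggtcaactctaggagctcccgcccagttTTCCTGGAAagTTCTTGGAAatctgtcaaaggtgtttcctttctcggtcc

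The signal of Bcl6 itself was higher on the arrays labelled knockout. Its single probe read 10.95 and 10.92 on the wild-type arrays and 12.60 and 12.33 on the labelled knockout arrays. Both labelled knockout arrays lay above both wild-type arrays, with a change of 1.53 ± 0.13 (limma, adjusted p = 5.31e-05). With LPS the change was -0.94 ± 0.13, and the difference between these effects, -2.47 ± 0.19, was itself significant (limma, adjusted p = 0.000675). The sources used here do not place the probe relative to the deletion, so the probe does not check the genotype. Every direction below is that of the arrays labelled knockout.

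Of the 14 tested members of the list of Bcl6 and its corepressors, Bcl6 was the only one called higher and Tle1, a Groucho-type corepressor, the only one called lower. Tle1 read 9.52 and 9.61 in wild type and was undetected on both labelled knockout arrays, at least 13.5-fold lower (limma, adjusted p = 1.42e-07). Both its further probes, undetected in the labelled knockout as well, were also called lower. The corepressor Bcor (0.52), the corepressor Mta3 (-0.70) and the deacetylases Hdac3 (0.17), Hdac4 (0.17), Hdac5 (-0.58) and Hdac7 (-0.44) did not reach 2-fold.

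The arrays separated clearly by genotype. Median raw intensity was 130.2 and 128.2 in wild type and 119.8 and 117.9 in the labelled knockout, and 12560 to 13209 probes were detected. Across genes, arrays of the same group correlated with r of 0.994 and 0.995 and arrays of different genotypes with r from 0.946 to 0.948. The median absolute difference between the 2 arrays of a group was 0.135 in wild type and 0.130 in the labelled knockout.

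Of the 7927 genes, 700 were called (8.83%), 373 higher (4.71%) and 327 lower (4.13%). Counted by probe, 1129 were called (8.37%), 589 higher (4.37%) and 540 lower (4%). Most changes were small, with 5% of genes below -0.90, 5% above 0.97 and a median of 0.00. At least 4-fold changes were shown by 84 genes called higher and 68 called lower, at least 8-fold by 31 and 17, and at least 16-fold by 15 and 7. The groups did not overlap for 5651 genes (71.3%), and 2885 (36.4%) had an adjusted p under 0.05 at any fold. Among 7061 genes detected on all 4 arrays 6.49% were called, 239 higher and 219 lower. A further 236 genes were detected on both labelled knockout arrays and on neither wild-type array, and 108 of them were called higher (45.8%). In the other direction 160 genes were detected only on both wild-type arrays, and 87 of them were called lower (54.4%). The last 2 shares follow in part from how those genes were picked.

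**Figure D1:**
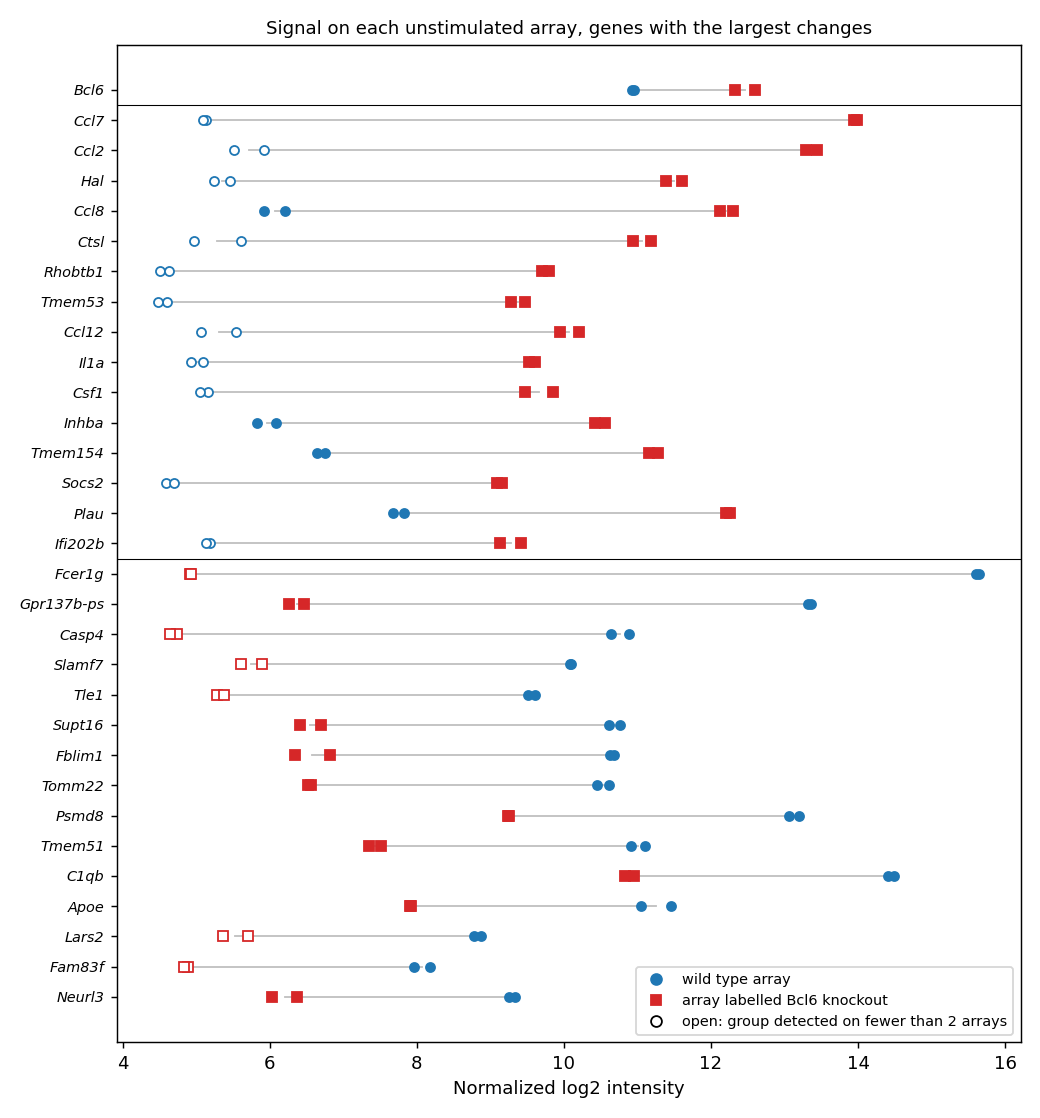
Normalized log2 intensity (horizontal axis) of Bcl6 and of the 15 genes with the largest called changes in each direction (clone-like names passed over) on each of the 4 unstimulated arrays. Circles are wild-type arrays, squares the arrays labelled knockout, open symbols groups detected on fewer than 2 arrays, and grey lines join the group means; both arrays of one genotype lie beyond both of the other, as the rule for choosing the genes other than Bcl6 required, from Ccl7 at 13.98 and 13.95 against 5.13 and 5.09 to Fcer1g at 4.91 and 4.94 against 15.65 and 15.61.

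All 4 tested monocyte-attracting chemokines were called higher. These ligands draw monocytes into tissue, most of them through the receptor Ccr2. Ccl7 read 5.13 and 5.09 on the wild-type arrays, where it was undetected, and 13.98 and 13.95 on the labelled knockout arrays. It was at least 270-fold higher (limma, adjusted p = 7.15e-10), and its second probe, undetected in wild type as well, was also called higher. Ccl2 read 5.92 and 5.52 in wild type, detected on 1 of those arrays, and 13.44 and 13.29 in the labelled knockout, a change of 7.64 ± 0.16 (limma, adjusted p = 1.5e-08). Ccl8 read 5.93 and 6.21 against 12.12 and 12.30, a change of 6.14 ± 0.17. Ccl12 read 9.95 and 10.20 in the labelled knockout and was below detection in wild type, at least 18.3-fold higher. In each of these genes the gap between genotypes was far wider than the gap between replicate arrays. Ccl7 and Ccl12 were kept only because the labelled knockout detected them, so their direction follows in part from how they were kept. The 4 genes are neighbours in the RefSeq annotation, with 1 other protein-coding gene among them. The promoters of Ccl8 and Ccl12 held none of the 4 motifs searched. Promoters of Ccl2 and Ccl7 were not available here and were not searched.

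Other chemokines split in direction, 5 of 12 higher and 2 lower. Ccl6, a myeloid CC chemokine, read 8.58 and 8.57 in wild type and 11.65 and 11.39 in the labelled knockout, a change of 2.95 ± 0.13 (limma, adjusted p = 9.6e-07). Pf4, a platelet chemokine also made by macrophages, changed by 2.50 ± 0.13. Cxcl14 changed by 2.39 ± 0.17. The inflammatory chemokines Ccl3 and Ccl4 changed by 1.50 ± 0.11 and 1.44 ± 0.15. In contrast Ccl5 changed by -1.28 ± 0.12. The interferon-gamma-induced Cxcl9 was undetected in the labelled knockout, at least 1.83-fold lower. Ccl6, Ccl3 and Ccl4 are neighbours of Wfdc17 and Wfdc18, which were also called higher, Wfdc17 by 1.51 ± 0.16 and Wfdc18 by at least 1.35-fold. The receptors that sense chemoattractants showed no rise, with 0 of 9 called higher and 3 lower. The formyl peptide receptor Fpr2 read 11.59 and 11.67 against 8.83 and 9.13, a change of -2.65 ± 0.13. The anaphylatoxin receptor C5ar1 changed by -1.44 ± 0.12 and the fractalkine receptor Cx3cr1 by -1.45 ± 0.25.

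Interleukin-1 ligands rose together. Il1a, the cell-associated ligand, read 4.93 and 5.09 in wild type, undetected on both arrays, and 9.61 and 9.52 in the labelled knockout, at least 12.8-fold higher (limma, adjusted p = 3.93e-08). Il1b, the secreted ligand, read 6.34 and 6.04 against 9.62 and 9.63, a change of 3.43 ± 0.13. The receptor antagonist Il1rn changed by 2.29 ± 0.12 and Il18 by 1.14 ± 0.10. For all 4 genes both labelled knockout arrays lay above both wild-type arrays, though the groups did not overlap for 71.3% of all genes either. Casp4, the sensor of intracellular LPS that triggers Il1b release (the mouse gene is also known as caspase-11), went the other way. On its brightest probe it read 10.64 and 10.88 in wild type and was undetected in the labelled knockout, at least 30.9-fold lower (limma, adjusted p = 2.29e-08). Its second probe was detected on both labelled knockout arrays. That probe read 8.63 and 8.68 in wild type against 6.09 and 6.22, a change of -2.50. Casp4 is known to be disrupted in some inbred mouse strains. Casp1, the canonical Il1b protease, changed by -0.35 and was not called.

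Among other inflammatory cytokines 3 of 7 rose and 1 fell. Osm, which signals through gp130 receptors, read 8.84 and 8.80 against 11.23 and 11.09, a change of 2.34 ± 0.13 (limma, adjusted p = 3.35e-06). The ligands Tnfsf14 and Tnfsf13b changed by 2.03 ± 0.11 and 1.45 ± 0.12, while Ebi3, a subunit of interleukins of the Il12 family, changed by -1.16 ± 0.12. Tnf itself changed by -0.07. Csf1, the growth factor that macrophages depend on, was undetected in wild type and read 9.85 and 9.47 in the labelled knockout, at least 13.7-fold higher. Its receptor Csf1r changed by -0.62 on its brightest probe and was not called there, whereas a further probe changed by -1.28 and was called lower. Inhba, which encodes the subunit of activin A, read 5.83 and 6.09 against 10.56 and 10.42, a change of 4.53 ± 0.13 (limma, adjusted p = 6.02e-08). Of the other members of the activin and TGF-beta list, Tgfbi (1.12 ± 0.11) and Tgfbr2 (1.03 ± 0.12) were called higher on their brightest probes only, and the signal transducer Smad3 fell by 1.00 ± 0.11.

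Feedback inhibitors of cytokine receptors were the members of the Stat, Jak and Socs list that rose, 4 of 15, with 0 lower. Socs2 was undetected in wild type and read 9.09 and 9.16 in the labelled knockout, at least 9.44-fold higher. Cish, whose promoter is printed above, read 5.87 and 5.65 against 9.02 and 9.29, a change of 3.39 ± 0.15 (limma, adjusted p = 1.19e-06), with 1 of the wild-type arrays detecting it. Socs3 changed by 2.20 ± 0.11 and Socs6 by 1.14 ± 0.13. The Stat and Jak members themselves lay between -0.51 (Jak3) and 0.35 (Jak1) and none was called.

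**Figure D2:**
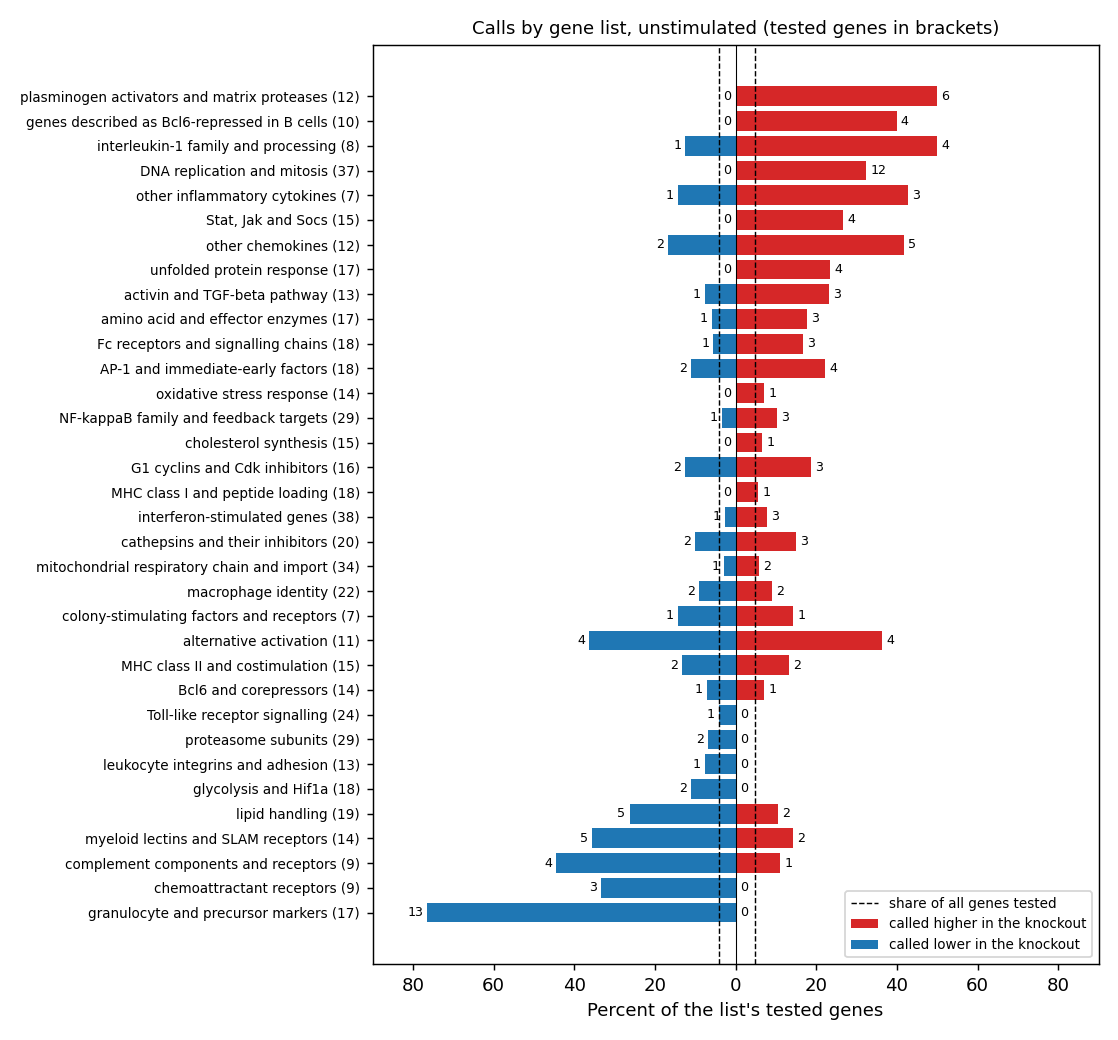
Percent of the tested genes of each list called higher (red, right) or lower (blue, left) in the unstimulated labelled knockout, for lists with at least 7 tested genes, whose number is in brackets; digits beside the bars count the called genes. Dashed lines mark the shares among all genes tested, 4.71% higher and 4.13% lower; plasminogen activators and matrix proteases stand at the top with 6 of 12 higher and granulocyte markers at the bottom with 13 of 17 lower.

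Proteases that act outside the cell and their inhibitors rose, 6 of 12 with 0 lower. Plau, the urokinase plasminogen activator, read 7.82 and 7.68 in wild type and 12.21 and 12.26 in the labelled knockout, a change of 4.48 ± 0.11 (limma, adjusted p = 3.35e-08). Its receptor Plaur changed by 1.67 ± 0.13. The collagenase Mmp13 read 8.57 and 8.66 against 12.08 and 12.26, a change of 3.55 ± 0.13, and its second probe, undetected in wild type, was also called higher. The elastase Mmp12 changed by 1.43 ± 0.11 and the inhibitor Timp1 by 1.70 ± 0.16. Serpinb2, an inhibitor of urokinase, was at least 1.14-fold higher, since no wild-type array detected it. The gelatinase Mmp9 changed by 0.18 and was not called.

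Lysosomal cathepsins were mostly not called, with 3 of 20 members of the list of cathepsins and inhibitors higher and 2 lower. Ctsl, a cysteine protease of the lysosome, read 4.97 and 5.61 in wild type, undetected, and 11.18 and 10.94 in the labelled knockout, at least 36.2-fold higher (limma, adjusted p = 1.92e-07). Stefins, cytosolic inhibitors of such proteases, rose with it. Stfa1 read 5.93 and 5.48 against 9.62 and 9.50, a change of 3.85 ± 0.19, and Stfa2 was at least 8.85-fold higher. The related Cstdc4 and Cstdc5, from the same stretch of the annotation, were at least 6.13-fold and 2.16-fold higher. These genes are near-identical copies of each other, so a probe may read more than 1 of them and their values are uncertain. Cathepsins B, D and S (Ctsb, Ctsd, Ctss) changed by -0.03, 0.17 and -0.16. Ctsa changed by -1.32 on its brightest probe, but its 4 other probes changed by -0.16 to 0.17 and were not called. Cst7 fell by at least 1.43-fold. The count of lower members was 0 without wild-type replicate 1 and 1 without wild-type replicate 2.

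Fcer1g, the gamma chain through which Fc receptors and several lectins signal, fell below detection. It read 15.65 and 15.61 on the wild-type arrays and 4.91 and 4.94 on the labelled knockout arrays, where it was undetected. It was at least 902-fold lower (limma, adjusted p = 3.15e-09), on its only kept probe. None of the tested receptors that pair with this chain was called lower. The low-affinity IgG receptor Fcgr3 read 11.84 and 11.79 against 14.19 and 14.13, a change of 2.34 ± 0.11 (limma, adjusted p = 1.4e-06). The lectin Clec4n (Dectin-2) read 11.19 and 11.16 against 14.57 and 14.51, a change of 3.37 ± 0.12. The inhibitory Fcgr2b, which signals without the chain, changed by 1.73 ± 0.11. Fcgr1 (-0.64), Fcgr4 (0.43), Clec4e (-0.52) and Clec4d (-0.33) were not called. Nor were the alternative adaptor Tyrobp (-0.14) or the kinase Syk (0.29). Without wild-type replicate 1, or without labelled knockout replicate 1, 2 members of this list were called lower instead of 1.

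Myeloid lectins and SLAM receptors were lower more often than higher, 5 against 2 of 14. On its brightest probe Slamf7, a self-binding receptor of phagocytes, read 10.10 and 10.08 in wild type and 5.61 and 5.90 in the labelled knockout. The change was -4.34 ± 0.15 (limma, adjusted p = 1.97e-07), with 1 labelled knockout array detecting it. The further probe of Slamf7 was detected on both labelled knockout arrays. It read 8.78 and 8.64 against 6.53 and 7.11, a smaller change of -1.89 ± 0.19. The related Slamf9 changed by -2.89 ± 0.12 and the lectin Clec4a1 by -2.77 ± 0.12. Clec4b1 rose by 3.68 ± 0.11 on its brightest probe, whereas its further probe changed by -0.27 and was not called. Without either of the labelled knockout arrays the count of higher members was 1.

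The 3 chains of C1q fell. C1qb read 14.49 and 14.40 in wild type and 10.84 and 10.95 in the labelled knockout, a change of -3.55 ± 0.12 (limma, adjusted p = 1.97e-07). C1qc changed by -2.01 ± 0.16 and C1qa by -1.12 ± 0.16. C1q is the recognition molecule of the classical complement pathway, and its 3 genes are neighbours in the annotation. With C5ar1, 4 of 9 complement members were lower. Cfb, of the alternative pathway, rose by 1.51 ± 0.13, and the list median was 0.14. The count of lower members was 2 without background correction.

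Genes of lipid handling also leaned lower, 5 of 19 with 2 higher. Apoe, the lipid carrier secreted by macrophages, read 11.46 and 11.04 against 7.92 and 7.91, a change of -3.33 ± 0.21 (limma, adjusted p = 8.55e-06). Apoc2, from the same gene cluster, was at least 4.64-fold lower. The lipid-droplet coat protein Plin2 changed by -1.32 ± 0.10 and the receptor Pparg by -1.15 ± 0.13, on its brightest probe only. The desaturases Scd1 and Scd2 rose by 2.00 ± 0.11 and 1.26 ± 0.42. The adjusted p of Scd2 was 0.045 (limma), and without wild-type replicate 2, or without either labelled knockout array, 1 member was called higher in place of 2. Cholesterol synthesis showed 1 call among 15 members (6.67%, beside 8.83% of all genes), Ch25h, which makes an oxysterol and rose by 1.12 ± 0.12. Its list median was -0.32.

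Genes of DNA replication and mitosis were higher in 12 of 37 cases and lower in 0, with a list median of 0.78 against 0.00 over all genes. Tyms, thymidylate synthase, read 8.98 and 9.07 in wild type and 11.04 and 10.85 in the labelled knockout, a change of 1.92 ± 0.14 (limma, adjusted p = 1.7e-05). The licensing factor Cdc6 changed by 1.73 ± 0.13, the maintenance methylation factor Uhrf1 by 1.54 ± 0.12 and the ribonucleotide reductase subunit Rrm2 by 1.38 ± 0.14, the last on its brightest probe only. The count fell to 2 without background correction, 3 in the authors' deposited processed values and 7 with an offset of 50. Among G1 regulators, cyclin D1 (Ccnd1) read 10.10 and 9.99 against 11.33 and 11.52, a change of 1.38 ± 0.13, and its further probes changed by 1.59 and 1.66. Cyclin D2 (Ccnd2) was at least 1.71-fold higher. The inhibitor Cdkn2b changed by -2.12 ± 0.12 and Cdkn1c by -1.56 ± 0.11.

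**Figure D3:**
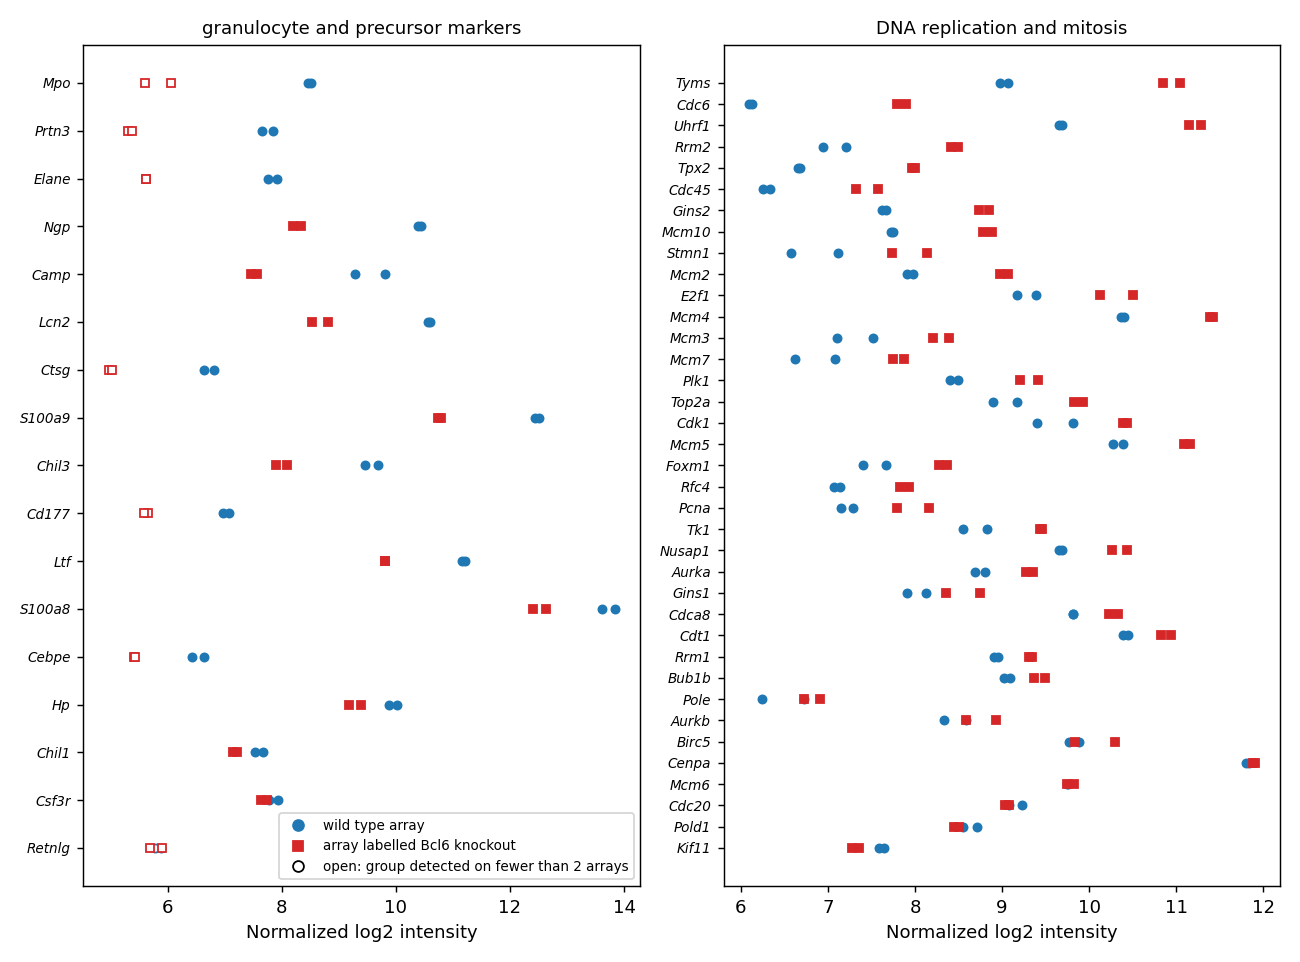
Normalized log2 intensity (horizontal axes) on each unstimulated array for the 17 tested granulocyte and precursor markers (left) and the 37 tested genes of DNA replication and mitosis (right). Circles are wild-type arrays, squares the arrays labelled knockout, and open symbols groups detected on fewer than 2 arrays; 13 granulocyte markers were called lower and 12 replication genes higher.

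Markers of macrophages were detected in both genotypes. Of 25 macrophage identity genes on the array 22 were kept, and Cd163, Maf and Marco were at or below background. Of the 22 tested 2 were called higher and 2 lower, with a list median of -0.08. The surface marker Adgre1 (F4/80) changed by -0.05, Cd14 by 0.03 and the lysozyme Lyz2 by 0.11. The mannose receptor Mrc1 rose by 1.32 ± 0.17 and the scavenger receptor Msr1 by 1.07 ± 0.12, while Aif1 (Iba1) fell from 11.64 and 11.57 to 9.18 and 9.27, a change of -2.38 ± 0.11 (limma, adjusted p = 1.29e-06). Without labelled knockout replicate 2 the count of higher members was 1, and without background correction 1 was called in each direction.

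Markers of granulocytes and their precursors were lower. Of 17 tested, 13 were called lower and 0 higher, with a list median of -1.58, and 5 of the 17 were kept only because 1 genotype detected them. With detection required on all 4 arrays 7 were called lower. S100a9, an alarmin of neutrophils, read 12.44 and 12.51 in wild type and 10.78 and 10.74 in the labelled knockout, a change of -1.72 ± 0.12 (limma, adjusted p = 1.45e-05). The granule genes Mpo, Ngp and Camp changed by -2.65 ± 0.20, -2.14 ± 0.12 and -2.02 ± 0.17, and Prtn3 was at least 3.82-fold lower. The summed linear signal of the list was 27227 and 30053 on the wild-type arrays and 10482 and 11428 on the labelled knockout arrays. Cxcr2, Fcnb, Mmp8, Ms4a3 and Padi4 were at or below background. The part of these markers in the other results was not tested, and in bulk RNA fewer cells of a type and less RNA per cell cannot be told apart. Mast cell markers had 2 of 12 members tested, Kit and Hdc, at least 1.62-fold and 1.75-fold lower. Both were kept only because the wild-type arrays detected them, so their direction follows in part from how they were kept. None of 8 B cell and 11 T and NK cell markers on the array was kept. Of the remaining lists, 2 of 12 dendritic cell, 1 of 12 fibroblast, 5 of 12 osteoclast and 1 of 11 erythroid and megakaryocyte markers were kept. No kept fibroblast or osteoclast marker was called. The kept erythroid and megakaryocyte marker was Pf4, called higher as given above, with a linear signal of 2939 and 3390 in wild type and 19213 and 16650 in the labelled knockout. Of the dendritic cell markers 1 of 2 was called higher, Bst2, with a list median of 1.39.

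Of 24 tested genes of Toll-like receptor signalling 0 were called higher and 1 lower (4.17%, beside 8.83% of all genes), the transcription factor Irf5 at -1.27 ± 0.13. Tlr4 changed by 0.04 and Myd88 by -0.11. In the list of the NF-kappaB family and its feedback targets 3 of 29 rose and 1 fell (13.8%). Ier3, an early survival gene, read 9.55 and 9.63 against 12.14 and 12.09, a change of 2.52 ± 0.12, while the inhibitor Nfkbia changed by -0.35 and Tnfaip3 by 0.40. The lower call, Ikbke, was lost without wild-type replicate 1, and without background correction 1 member was called higher and 0 lower. Interferon-stimulated genes gave 3 higher and 1 lower of 38 (10.5%, beside 8.83% of all genes), with a list median of -0.13. Oasl1 and Irf7 changed by 1.75 ± 0.13 and 1.17 ± 0.12. Bst2 read 8.55 and 9.17 against 11.35 and 10.21, a change of 1.92 ± 0.40, and Ifi35 changed by -1.56 ± 0.12. Without labelled knockout replicate 1, 2 were called lower. The interferon-inducible DNA-binding gene Ifi202b read 5.20 and 5.14, undetected, in wild type and 9.42 and 9.14 in the labelled knockout, at least 10.5-fold higher (limma, adjusted p = 1.97e-07), and its second probe, undetected in wild type, was also called higher. Ifi202b is known to be almost silent in C57BL/6 mice. The part of strain background in these results was not tested.

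Immediate-early factors split, with 4 of 18 higher and 2 lower. Egr3 was at least 2.16-fold higher. The phosphatase Dusp6 changed by 1.67 ± 0.14 and Klf4 by 1.43 ± 0.18. In contrast the phosphatase Dusp1 changed by -1.19 ± 0.11 and Klf2 by -1.25 ± 0.14. Alternative activation genes divided evenly, 4 of 11 higher and 4 lower. The coagulation factor subunit F13a1 rose by 2.12 ± 0.16 beside Socs2 and Mrc1, while the chitinase-like Chil4 and Chil3 changed by -2.26 ± 0.12 and -1.58 ± 0.13. Costimulatory and MHC class II genes went in different directions. Cd86, a ligand of Cd28, read 8.57 and 8.64 against 10.54 and 10.74, a change of 2.04 ± 0.12 (limma, adjusted p = 5.78e-06), and both its further probes were called. H2-Ab1 changed by -1.78 ± 0.12 and H2-Eb1 by -1.22 ± 0.15. In the MHC class I list 1 of 18 was called (5.56%, beside 8.83% of all genes), the chaperone Calr at 1.00 ± 0.13.

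Targets that Bcl6 is known to repress in B cells had 10 tested members in their list. Of these 4 rose and 0 fell (40%, beside 8.83% of all genes), with a list median of 0.56. Among the 10, 2 were kept only because 1 genotype detected them, so their direction follows in part from how they were kept. Batf, a partner of AP-1 factors, read 7.36 and 7.41 against 9.47 and 9.15, a change of 1.92 ± 0.13 (limma, adjusted p = 1.59e-05). The others that rose were Ccl3, Ccnd2 and Cd80, the last at least 1.65-fold higher. Id2, a further member, changed by 0.01 on its brightest probe, whereas another probe changed by 1.08 and was called higher. Cdkn1a changed by -0.44. The members Atr, Cdkn1b, Chek1, Irf4, Prdm1 and S1pr1 were on the array but were not kept.

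In the list of amino acid and effector enzymes 3 of 17 rose and 1 fell (23.5%). Hal, histidine ammonia-lyase, which starts histidine breakdown, was undetected in wild type and read 11.39 and 11.61 in the labelled knockout, at least 48.9-fold higher (limma, adjusted p = 9.68e-08), and its second probe, undetected in wild type, was also called higher. The arginase Arg2 changed by 1.22 ± 0.21 and the prostaglandin E synthase Ptges by -1.26 ± 0.17. The iron exporter Slc40a1 was the 1 call among 14 genes of the oxidative stress list (7.14%, beside 8.83% of all genes). It read 10.32 and 10.13 against 12.78 and 12.99, a change of 2.66 ± 0.12. In the glycolysis list 0 of 18 rose and 2 fell (11.1%, beside 8.83% of all genes). These were Egln3, a prolyl hydroxylase of Hif1a, by at least 3.08-fold and Pkm by 1.11 on its brightest probe. Protein-folding genes had 4 of 17 higher, led by the disulfide isomerases Pdia4 (1.46 ± 0.14) and Pdia6 (1.41 ± 0.17), although the further probe of Pdia6 changed by -0.04. Integrins gave 1 call of 13 (7.69%, beside 8.83% of all genes), Itgb7 at -1.10 ± 0.13.

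Some genes named by the size of their change encode parts of large complexes. Tomm22, a receptor of the mitochondrial import pore, read 10.62 and 10.46 in wild type and 6.57 and 6.52 in the labelled knockout, a change of -4.00 ± 0.11 (limma, adjusted p = 5.46e-08). Of 34 tested genes of the respiratory chain and import machinery, it was the only one called lower. Tomm70a (1.04 ± 0.13) and Sdhd (1.03 ± 0.11) were higher and the list median was -0.02. The calls were 8.82% of that list, beside 8.83% of all genes. Psmd8, a subunit of the proteasome lid, read 13.19 and 13.06 against 9.26 and 9.24, a change of -3.88 ± 0.18 (limma, adjusted p = 1.19e-06). In the proteasome list 2 of 29 subunits fell (6.9%), Psmd8 and the catalytic Psmb5 (-1.77 ± 0.13), 0 rose, and the list median was -0.06. Supt16, a subunit of the FACT histone chaperone, changed by -4.13 ± 0.16 on its brightest probe. Its further probe read 7.89 and 7.65 against 8.25 and 8.09, a change of 0.40 that was not called. 

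Other genes named by the size of their change belong to no list. No wild-type array detected Rhobtb1 or Tmem53, which were at least 14.6-fold and 11.2-fold higher. The second probe of Rhobtb1, undetected in wild type, was also called higher. Tmem154 read 6.64 and 6.75 against 11.15 and 11.28, a change of 4.52 ± 0.12. Among falls, the pseudogene Gpr137b-ps read 13.35 and 13.31 against 6.27 and 6.47, a change of -6.96 ± 0.18 (limma, adjusted p = 4.29e-08). The filamin-binding adaptor Fblim1 changed by -4.08 ± 0.15, Tmem51 by -3.58 ± 0.17 and the ubiquitin ligase Neurl3 by -3.09 ± 0.13, while Fam83f was at least 4.79-fold lower. Lars2, the mitochondrial leucyl-tRNA synthetase, was undetected in the labelled knockout and at least 8.10-fold lower. For all 31 genes with per-array values in the plot of the largest changes, the adjusted p was at most 5.31e-05 (limma).

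Where a gene had more than 1 probe, the probes often but not always gave the same call. Of the 373 genes called higher 91 had a further kept probe, and in 66 of these (72.5%) one was called in the same direction. Of the 327 called lower 86 had one, and 44 (51.2%) were called in the same direction. At changes of at least 8-fold the counts were 11 of 12 higher and 4 of 5 lower. Across 3845 further probes of 2787 genes, changes on the further and on the brightest probe correlated with r = 0.647, a description across probes that share the same arrays. Probes of 3 genes were called in opposite directions. Mgst1, a microsomal glutathione transferase, read 11.77 and 11.50 against 12.83 and 12.82 on its brightest probe and 10.71 and 10.67 against undetected on another. Saraf, a regulator of calcium entry, changed by -1.17 ± 0.11 on its brightest probe and by -0.82 and 2.19 on the others. Hyi changed by -1.06 on one probe and 1.34 on the other.

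A further 144 of 2610 genes that were not called on their brightest probe were called on another, 7 of them at 8-fold or more. The following were picked after their values were seen. Ctse, an endolysosomal aspartic protease, read 10.26 and 10.35 against 10.51 and 10.54 on its brightest probe, a change of 0.22. Its further probes read 5.88 and 5.998 against 12.03 and 12.00, a change of 6.07 ± 0.11, and undetected against 9.73 and 9.82. Atf4, a stress-response factor, changed by 0.15 on its brightest probe and by -3.48 ± 0.11 on another, which read 11.33 and 11.36 against 7.91 and 7.82. For the replication helicase subunit Mcm6, 2 probes changed by 0.04 and -0.10, and another read 9.48 and 9.40 in wild type and was undetected in the labelled knockout. In these genes the probes of 1 gene symbol thus gave different answers on the same arrays, and the sources used here do not say which transcripts they read.

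**Figure D4:**
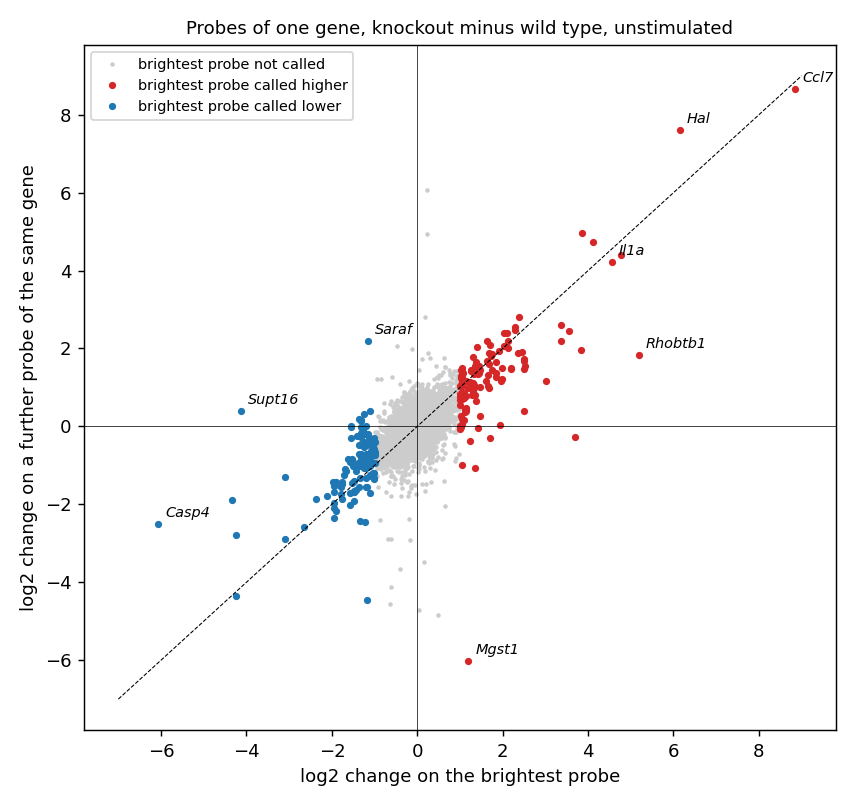
log2 change (labelled knockout minus wild type, unstimulated) on the brightest probe of a gene (horizontal axis) and on each further probe of the same gene (vertical axis), for 3845 further probes. Red and blue mark genes called higher or lower on the brightest probe and grey those not called; the dashed line marks equal change. Most coloured points share a sign on both axes, and Mgst1 and Saraf lie in opposite quadrants.

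The genotype effect seen without stimulus was largely present with LPS. The 2 comparisons share no array. The labels do not say whether the stimulated and unstimulated cells of a genotype came from the same mouse or culture. Agreement between the comparisons is therefore not a repeat in other mice. With LPS 838 genes were called (10.6%), 449 higher (5.66%) and 389 lower (4.91%). Of the 373 genes called higher without stimulus, 249 (66.8%, and 55.5% of the LPS calls) were also called higher with LPS and 0 lower. Of the 327 called lower, 209 (63.9%, and 53.7% of the LPS calls) were also called lower and 0 higher. The median change of these sets went from 1.38 to 1.31 and from -1.37 to -1.20. Across all genes the effects correlated with r = 0.811, a description, since genes of the same arrays are not independent. The difference of the effects was called for 252 genes (3.18%), among them 53 of the 373 and 30 of the 327.

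Fcer1g was undetected on both labelled knockout arrays with LPS as well. The effect on Plau, detected on all 8 arrays, was smaller with LPS, by -2.05. Ccl3 and Ccl4, higher by 1.50 and 1.44 without stimulus, changed by 0.10 and 0.32 with LPS.

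**Figure D5:**
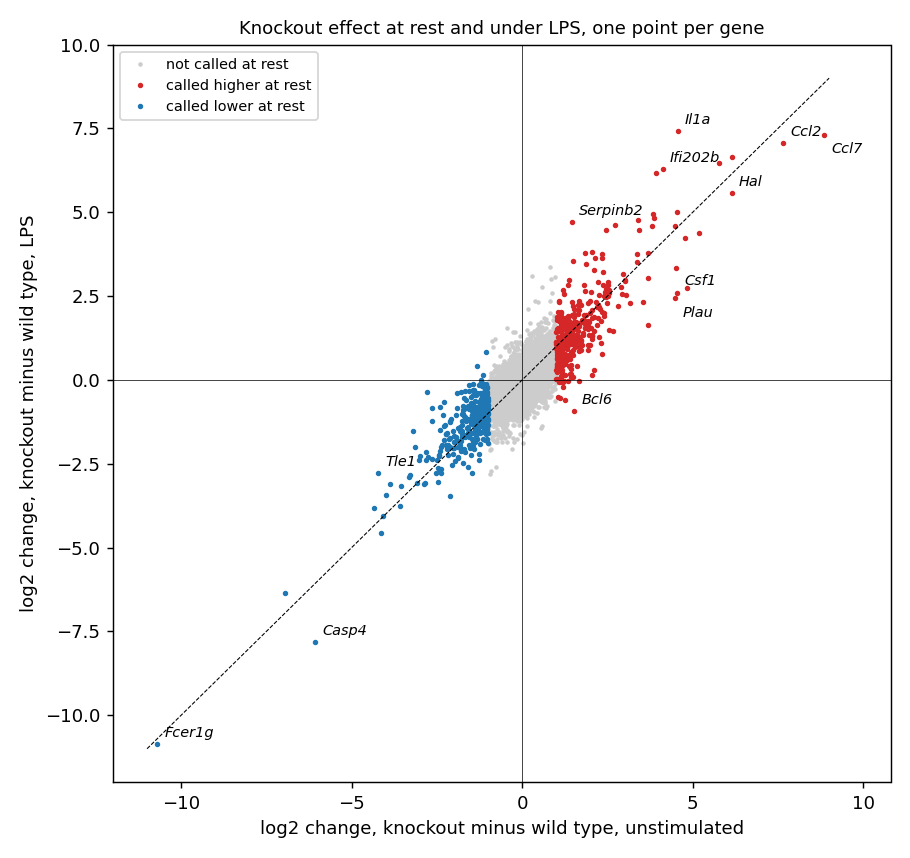
log2 change, labelled knockout minus wild type, without stimulus (horizontal axis) and with LPS (vertical axis), 1 point for each of 7927 genes. Red and blue mark genes called higher or lower without stimulus, grey those not called, and the dashed line equal change; changes of genes undetected in a group are shown as fitted, and Bcl6 lies below zero on the vertical axis at 1.53 and -0.94.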

How the data were processed

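Expression was measured on single-colour Illumina bead arrays with total RNA of mouse macrophages. Per the labels, Trizol RNA was treated with DNase I during column clean-up and converted to biotin-labelled cRNA. The authors deposited a mean intensity for each probe and array, not normalized between arrays, and a detection p-value in steps of 1 in 936. A second deposited table holds the authors' processed intensity values on a linear scale, made by a normalization that the sources used here do not name. The submitters' processing notes list GenomeStudio. The authors' tables held 0 columns of other samples.

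Raw intensity was background-corrected by nec in limma (limma 3.58.1, R 4.3.3, offset 16), and all 8 arrays were quantile-normalized on log2. Of 45281 probes, 13485 were kept because 2 or more of the 4 unstimulated arrays gave them a detection p under 0.01, of which 11772 had 1 gene symbol. Over the array 34885 probes had 1 symbol, 18 several and 10378 were unnamed here. Symbols were updated through RefSeq (GRCm38.p6), matching 34818 probes, and the brightest kept probe stood for a gene. A mean for each of 4 groups was fitted with lmFit and eBayes (4 residual and 4.631 prior degrees of freedom), adjusting by Benjamini-Hochberg over the kept probes. For the lower bounds, each dim array was given its lowest detected signal or, if higher, the probe's signal, and the mean of these was set against the bright group's mean. On simulated data for the same comparison, 100 of 100 genes changed by 1.5 and 100 of 100 changed by 3 were called, with 0 false calls among 7727.

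The rule for named genes took Bcl6 and up to 15 called genes in each direction with the largest change (clone-like names passed over, both arrays of a genotype beyond both of the other). It also took up to 4 members of each list, those with the largest unstimulated change. All members of the monocyte-attracting chemokine, Fc receptor and corepressor lists, and genes whose probes disagree, could be named as well. The members and the 42 lists, 9 of them cell type markers, were chosen with earlier results of these data known. The AP-1, NF-kappaB and Stat motifs were added with the present values known.

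Technical replicate numbers did not pair the arrays. Deviations of same-numbered arrays from their group means correlated with r = -0.0217 between the unstimulated genotypes and from -0.0243 to 0.00911 over 6 pairs of groups. The alternatives tried were the background correction, the normalization, the source of values, the filter, the arrays fitted, the probe rule, the replicate block and leaving out each array. Precision is limited by the number of arrays; sequencing depth has no counterpart here. No batch is named in the labels.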

Additional observations from a re-analysis of the deposited data

Results flagged for a closer look

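Of 174 named genes and list members looked at, the genotype effect differed between LPS and no stimulus for 31 (limma's test of the difference, adjusted p at most 0.0326 and a difference of at least 2-fold). Each value is the log2 effect with LPS minus that without, as fitted, so that genes undetected in a group carry a fitted level there. For such genes, Tmem53, Csf1, Ccl7, Il1a and Ifi202b among them, which the unstimulated wild-type arrays did not detect, the difference is not a measured size. The difference was positive for 17 genes and negative for 14. Over all genes the difference was called for 3.18%. Most of the 174 were picked by the size of their change without stimulus, which itself enters the difference. Their share therefore cannot be set against that of all genes.

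Among negative differences, that of Bcl6 was -2.47. Those of genes higher without stimulus were -2.10 for Tmem53, -2.05 for Plau, -1.95 for Csf1, -1.53 for Ccl7, -1.40 for Ccl3, -1.40 for Chac1, -1.23 for Mmp13, -1.20 for Slc40a1 and -1.19 for Tmem154. The difference was -1.75 for Casp4, -1.34 for Cdkn2b and -1.12 for Ptges, which were lower without stimulus, and -1.28 for Hif1a, which was not called there.

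Among positive differences, those of genes higher without stimulus were 2.88 for Il1a, 2.17 for Ifi202b, 1.41 for Osm, 1.38 for Cish, 1.34 for Arg2, 1.30 for Fcgr3, 1.10 for Stfa2 and 1.03 for Il1b. Genes lower without stimulus had differences of 1.92 for Hdc, 1.80 for Mpo, 1.69 for Fam83f, 1.59 for Prtn3, 1.45 for Tle1, 1.44 for Fpr2 and 1.14 for Klf2. Batf3 and Clec7a, not called without stimulus, had differences of 2.15 and 2.05.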

How the results depend on the processing

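Under 14 alternative settings, all 403 recomputed values of the 31 named genes other than Bcl6 kept their direction and their call. So did the values of Bcl6. The count of 700 called genes (373 higher, 327 lower) was 328 (172 and 156) without background correction and 340 (179 and 161) in the authors' processed values, of which 326 and 338 were among the 700. With an offset of 50 it was 481. Requiring detection on all 4 unstimulated arrays left 460 (239 higher, 221 lower) and 14 of the 31 named genes, because genes undetected in a genotype were then not tested. The 252 genes with a called difference between LPS and no stimulus became 101 without background correction, 162 with an offset of 50 and 97 in the authors' processed values. Median scaling gave 339 higher and 353 lower, or 383 and 311 relative to its median over all genes of -0.06. With the replicate block 700 genes were called, 699 of them shared, and the difference was called for 249. Numbers do not pair these arrays, and the block changed 1 list count, lipid genes called higher, from 2 to 1. Leaving out each array in turn gave 700 to 728 called genes (365 to 405 higher, 323 to 345 lower), 190 to 233 differences and a Bcl6 change of 1.40 to 1.67, with 31 of 31 named genes called. Of 448 recomputed list counts, 52 moved by more than 1.5 times. The cause of these moves was not tested.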
